A study of Mus musculus with 9 samples.

Results

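The LPS response described here is that of wild-type mouse macrophages at 4 h, set against unstimulated wild-type macrophages. It rests on 2 of the 9 arrays of the study, 1 on each side, and covers 10032 of the 12394 genes that the array names by a single symbol, those that reached log2 = 6 on at least 1 array. The cells were peritoneal macrophages recruited into mice by thioglycollate, an irritant, so they are inflammatory cells elicited into the cavity and not its undisturbed residents. The stimulated cells received 100 ng/ml lipopolysaccharide (LPS), a component of the outer membrane of Gram-negative bacteria, for 4 h, and the unstimulated cells received none. No label gives the strain background, age, sex or number of the mice. The study also holds wild-type cells at 1 h of LPS and, at 0, 1 and 4 h, cells of mice lacking MyD88 (MyD88 KO) or TRIF (TRIF KO).

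LPS is recognised on macrophages by Toll-like receptor 4 with its partners CD14 and MD-2. The adaptor MyD88 links the receptor to NF-kB and the MAP kinases, which turn on cytokine and chemokine genes, while the adaptor TRIF links it to interferon regulatory factors and to type I interferon, which in turn induces antiviral genes. The same stimulus is known to reshape macrophage lipid handling and receptor display, and to induce inhibitors that limit the response.

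Values are expression levels on the log2 RMA scale, on which a difference of 1 is 2-fold. With 1 array a side the difference of the pair has no replicate check and no p-value, and genes are counted past a fold. Array medians lay between 7.01 and 7.07. To set the scale, the difference that 99% of the genes stayed under was 1.24 (log2) for wild type at 4 h against unstimulated and 0.48 for wild type at 1 h against unstimulated. The same limit for unstimulated knockout cells against unstimulated wild type was 0.66 with MyD88 KO and 0.47 with TRIF KO. The available test was a limma fit of genotype and time to all 9 arrays, which gives the effect of 4 h averaged over the 3 genotypes and not that of wild type alone. Its error takes in differences in response between the genotypes. The fit called 463 genes higher (4.62%) and 715 lower (7.13%) at 4 h at an adjusted p under 0.05. Without the wild-type arrays it called 289 higher and 267 lower, without the TRIF KO arrays 245 lower, without a genotype term 150 higher and 158 lower, and with the 0 and 4 h arrays only 422 lower. Where the number of a list's members past the fit is given, the range over the 3 fits with 1 genotype left out follows in brackets. Single genes said to pass did so in the fit to all 9 arrays. The fit adjusts over all genes, and some genes stand in more than 1 list.

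Markers of the labelled cell type were present at high levels. Lyz2, the macrophage lysozyme, read 14.49 at 4 h, against 14.49 unstimulated, and Csf1r, the receptor for the macrophage growth factor, read 13.41 at 4 h, against 13.33 unstimulated. All 14 macrophage markers on the array were analysed, with a summed level of log2 = 16.36 at 4 h and 16.28 unstimulated. Of these, 1 was 2-fold higher at 4 h (Cd14, difference 1.11) and 1 was 2-fold lower (Mertk, -1.16). Markers of 9 other cell types were analysed, and none of those differed 2-fold. Their summed levels at 4 h and unstimulated were 11.14 and 11.34 for 9 neutrophil genes, 10.04 and 10.26 for 6 B cell genes, and 12.25 and 12.57 for 7 T and NK cell genes, where Il7r gave most of the signal (11.98 at 4 h and 12.37 unstimulated). The other 6 lists, of eosinophil, mast cell, dendritic cell, mesothelium, fibroblast and erythroid genes, had summed levels between 6.96 and 11.52 at 4 h and between 6.88 and 11.48 unstimulated. Of 7 markers of resident peritoneal macrophages 0 were 2-fold different. Gata6, their defining transcription factor, read 7.14 at 4 h, against 7.09 unstimulated. Both values are close to the array medians of 7.01 to 7.07, so they do not show that such cells were present. Mmp8, the neutrophil collagenase, read 8.87 at 4 h, against 9.64 unstimulated, and passed the fit. The B cell receptor component Cd79b read 6.57 at 4 h, against 7.52 unstimulated, and did not pass the fit (adjusted p = 0.11). The lymphotoxin gene Ltb read 5.66 at 4 h, against 6.34 unstimulated (adjusted p = 0.92). The part of such cells in the results was not tested, and in a bulk sample fewer cells of a type and less RNA per cell cannot be told apart.

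At 4 h, 123 genes (1.23%) were at least 2-fold higher in wild-type cells and 46 (0.459%) were at least 2-fold lower. These shares are the background for the list counts that follow. At 4-fold, 29 genes (0.289%) were higher and 1 (0.00997%) was lower. Centring the arrays on ribosomal protein genes, which moved the median of all genes by 0.14, gave 156 genes 2-fold higher and 27 lower, so that 85.2% of the 2-fold genes were higher, against 72.8% as deposited. The centring used all probe sets of these genes, and it took the median of the ribosomal protein list from -0.08 to 0.06. Genes 2-fold higher had a median level of 9.75 at 4 h and 8.17 unstimulated, and 14 of them started below log2 = 6, where an array says little about the unstimulated level. Genes 2-fold lower had a median level of 7.91 at 4 h and 9.14 unstimulated. Of the 123 genes 120 passed the fit, which includes these arrays, in the same direction, as did all 46 lower genes. The exceptions were Il6 (adjusted p = 0.15), Cxcl5 (0.052) and Tsc22d1 (0.21), of which Tsc22d1 was named after its values were seen. Just inside the 2-fold limit lay Spryd7 at 1.002 and Bex1 at -1.002, and just outside it Trps1 at 0.994 and Gyg at -0.997.

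**Figure D1:**
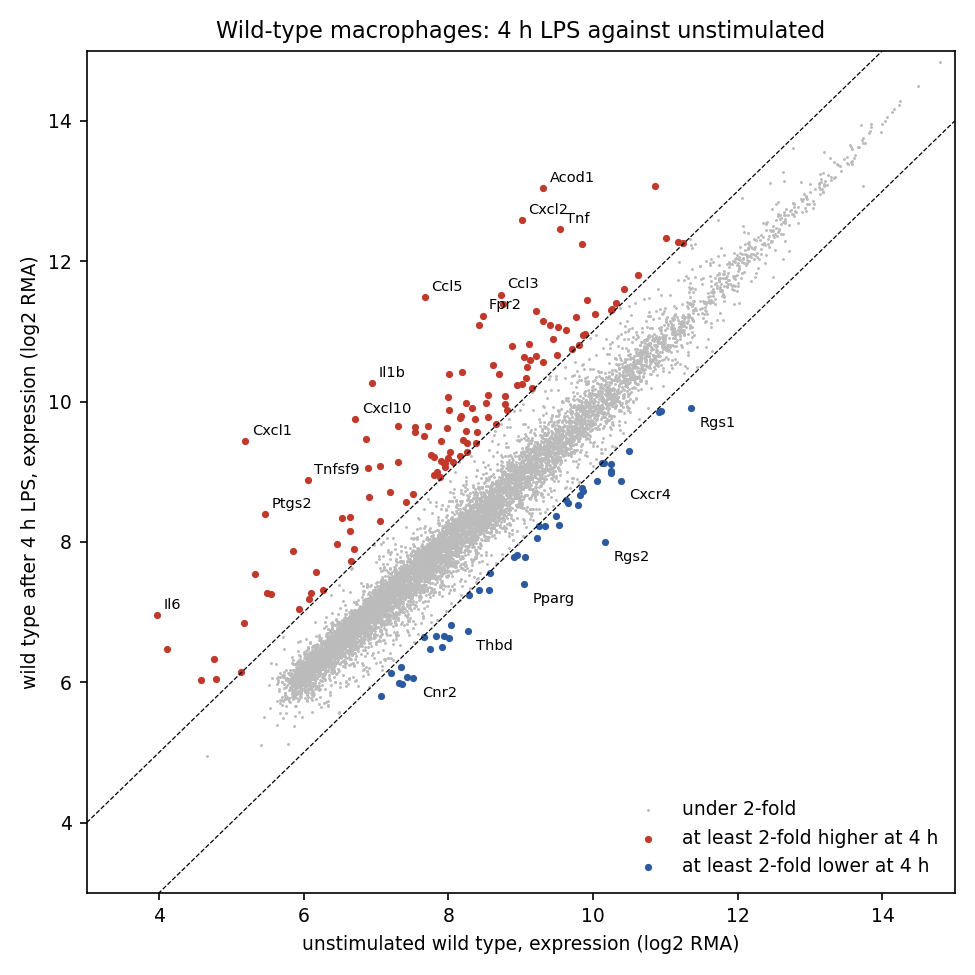
Expression of 10032 genes in wild-type macrophages after 4 h of LPS (vertical axis, log2 RMA) against unstimulated wild-type cells (horizontal axis, log2 RMA), 1 array each and 1 point per gene. Dashed lines mark a 2-fold difference. The 123 red genes above them reach 4.25 (Cxcl1) and the 46 blue genes below them reach -2.17 (Rgs2).

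The knockout arrays hold no wild-type RNA, so the fit without the wild-type arrays measures 4 h against 0 h in cells lacking MyD88 or TRIF. Each knockout lacks an adaptor of the LPS response, so this fit is no replicate of the wild-type pair. It called 2.88% of all genes higher and 2.66% lower. Among the genes 2-fold higher in wild type, 94 of 123 (76.4%) were called higher and 0 lower, and among the genes 2-fold lower, 39 of 46 (84.8%) were called lower and 0 higher. The median estimates in that fit were 0.72 for the higher and -0.56 for the lower genes, against median wild-type differences of 1.46 and -1.18. Gpr84 had an estimate of 2.19 there (adjusted p = 1.8e-05) and Ehd1, an endocytic recycling protein, one of 1.65 (adjusted p = 2.2e-05). Il6 had an estimate of 0.09 (adjusted p = 0.78) and Il1b of 0.89 (adjusted p = 0.18).

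Promoters of a few genes at both ends of the response are printed to show their letters. Each has 300 bases, 250 before and 50 after the start, as RefSeq gives them on GRCm38.p6. Cxcl1 (chr5:90890995-90891294, plus strand), Cxcl2 (chr5:90903649-90903948, plus), Cxcl10 (chr5:92348840-92349139, minus), Il6 (chr5:30012864-30013163, plus) and Pde4b (chr4:102569810-102570109, plus) are those of the 20 genes with the largest difference whose promoter holds the consensus NF-kB motif, 5 of the 16 with a promoter in the table. Rgs2 (chr1:144004100-144004399, minus) and Pparg (chr6:115360894-115361193, plus) had the lowest differences, and among the 20 lowest genes 2 of 16 with a promoter hold the motif. The first 5 were thus chosen for the motif and the last ones were not, so the printed promoters make no comparison. Capitals mark matches, on either strand, to the consensus NF-kB motif, to GAAA followed after any 2 bases by GAAA (the interferon response core) or to TGANTCA (the AP-1 site), and everything else is in lower case.
Cxcl1: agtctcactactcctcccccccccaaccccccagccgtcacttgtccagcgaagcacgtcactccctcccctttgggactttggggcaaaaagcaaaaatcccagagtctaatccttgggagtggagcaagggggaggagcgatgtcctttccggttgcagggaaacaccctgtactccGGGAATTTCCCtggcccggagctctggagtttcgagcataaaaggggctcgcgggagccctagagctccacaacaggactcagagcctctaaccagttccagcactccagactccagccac
Cxcl2: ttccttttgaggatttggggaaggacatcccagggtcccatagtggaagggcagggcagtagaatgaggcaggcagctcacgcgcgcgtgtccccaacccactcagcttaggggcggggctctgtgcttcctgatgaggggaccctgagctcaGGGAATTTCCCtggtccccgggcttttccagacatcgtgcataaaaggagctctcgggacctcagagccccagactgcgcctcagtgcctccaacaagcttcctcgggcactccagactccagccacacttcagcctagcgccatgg
Cxcl10: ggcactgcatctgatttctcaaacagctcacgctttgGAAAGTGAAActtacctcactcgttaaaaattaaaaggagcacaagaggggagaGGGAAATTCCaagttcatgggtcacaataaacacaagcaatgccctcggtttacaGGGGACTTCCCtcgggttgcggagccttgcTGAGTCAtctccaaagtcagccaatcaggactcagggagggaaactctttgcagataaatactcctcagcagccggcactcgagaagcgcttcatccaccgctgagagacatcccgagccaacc
Il6: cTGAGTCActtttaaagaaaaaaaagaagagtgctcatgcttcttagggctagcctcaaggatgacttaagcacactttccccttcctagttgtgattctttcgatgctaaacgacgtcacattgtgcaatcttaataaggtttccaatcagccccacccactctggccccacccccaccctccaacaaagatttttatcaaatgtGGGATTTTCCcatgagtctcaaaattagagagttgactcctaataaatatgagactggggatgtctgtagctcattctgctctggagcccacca
Pde4b: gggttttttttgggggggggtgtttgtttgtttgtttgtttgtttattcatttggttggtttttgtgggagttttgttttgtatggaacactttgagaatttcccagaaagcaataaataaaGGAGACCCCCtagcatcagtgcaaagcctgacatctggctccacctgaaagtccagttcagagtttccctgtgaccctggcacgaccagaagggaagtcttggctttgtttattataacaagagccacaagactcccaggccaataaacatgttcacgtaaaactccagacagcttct
Rgs2: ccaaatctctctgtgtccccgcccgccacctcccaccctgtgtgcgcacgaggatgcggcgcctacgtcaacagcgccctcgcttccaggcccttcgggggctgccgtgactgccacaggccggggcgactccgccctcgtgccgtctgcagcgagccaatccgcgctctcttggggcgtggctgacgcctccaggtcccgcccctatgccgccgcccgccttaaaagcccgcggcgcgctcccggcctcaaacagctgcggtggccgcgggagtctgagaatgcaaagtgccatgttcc
Pparg: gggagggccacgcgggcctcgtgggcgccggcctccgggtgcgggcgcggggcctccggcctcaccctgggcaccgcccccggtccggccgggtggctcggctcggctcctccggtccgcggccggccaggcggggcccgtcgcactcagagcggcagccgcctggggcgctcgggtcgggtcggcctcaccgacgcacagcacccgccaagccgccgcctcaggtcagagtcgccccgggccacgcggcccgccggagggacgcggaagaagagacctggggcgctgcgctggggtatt
The Cxcl1 motif lies 71 bases before the start, that of Cxcl2 97 bases and that of Il6 44 bases before it. Cxcl10 holds matches 159 and 104 bases before the start, the second made of overlapping matches, with the interferon response core 213 bases and TGANTCA 74 bases before it. Pde4b has its match on the opposite strand, 128 bases before the start. The Rgs2 and Pparg windows hold none of these motifs.

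Promoters were found for 8083 of the 10032 genes, some with several starts. The consensus NF-kB motif stood in 34 of 131 promoters (26.0%) of the genes 2-fold higher, in 3 of 58 (5.17%) of those 2-fold lower and in 10.7% of the promoters of all genes analysed. The interferon response core stood in 6.11% of the promoters of the higher genes, 3.45% of those of the lower genes and 3.24% of all. TGANTCA stood in 11.5%, 10.3% and 5.93% in the same order, and TATAAA in 17.6%, 13.8% and 8.56%. TGACGTCA, the cyclic AMP response element, stood in 1.53% for the higher genes, in 0 of 58 for the lower ones and in 2.76% of all. Median GC content was 55.3% for the higher genes, 58.5% for the lower genes and 60% for all, and the median number of CpG pairs was 11, 14.5 and 19. All matches were counted on both strands. They describe letters in a window and say nothing of binding.

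Among the ELR CXC chemokines, which attract neutrophils, Cxcl1 read 9.44 at 4 h, against 5.19 unstimulated, and had the largest difference of all genes as deposited, 4.25. With values under 6 raised to 6 it was 3.44, below those of Ccl5, Acod1 and Cxcl2. Cxcl2 read 12.59 at 4 h, against 9.01 unstimulated (11.9-fold), and had an estimate of 2.71 ± 0.22 (SE) in the fit (adjusted p = 9.3e-06). Cxcl5 read 6.47 at 4 h, against 4.11 unstimulated. Both of its levels are low, and with values under 6 raised to 6 its difference of 2.36 became 0.47. Cxcl5 passed the filter through the wild-type 4 h array only. Of the 5 genes analysed 3 were 2-fold higher, with a median difference of 2.36 against 0.01 over all genes. With values under 6 raised to 6, 2 were 2-fold higher and the median was 0.71. In the fit 3 passed (2 to 4).

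Interferon-inducible chemokines, which draw T cells and NK cells, came next. Ccl5 read 11.48 at 4 h, against 7.68 unstimulated (13.9-fold), while Cxcl10 read 9.75 at 4 h, against 6.72 unstimulated (8.19-fold). Cxcl9, a close relative known for its dependence on interferon gamma, read only 6.26 at 4 h, against 5.95 unstimulated. Cxcl16, a transmembrane chemokine and scavenger of oxidised lipid, read 10.95 at 4 h, against 10.04 unstimulated. All 4 passed the fit (2 to 3). Of the 11 CC chemokines, which attract monocytes and other leukocytes, only Ccl3 and Ccl4 were 2-fold higher. Ccl3 read 11.53 at 4 h, against 8.73 unstimulated, and Ccl4 read 10.80 at 4 h, against 8.88 unstimulated. The CC list as a whole had a median of 0.18, with 4 members past the fit (1 to 4).

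Among 10 interleukins and interleukin antagonists all 10 were higher at 4 h, 4 of them 2-fold, and 4 passed the fit (1 to 6). With no filter on low values 12 of 13 were higher and 1 was lower. With values under 6 raised to 6, 3 of the 10 were 2-fold higher. Il1b, the fever-inducing product of the inflammasome, read 10.27 at 4 h, against 6.95 unstimulated (9.99-fold). Its relative Il1a read 9.06 at 4 h, against 6.89 unstimulated. Il6, the inducer of the acute phase response, read 6.95 at 4 h, against 3.97 unstimulated. Because its unstimulated level is near the bottom of the scale, its difference of 2.98 became 0.95 when values under 6 were raised to 6. Il6 passed the filter through the wild-type 4 h array only. Il12a, a subunit of the T helper 1 cytokine IL-12, read 7.25 at 4 h, against 5.55 unstimulated.

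The TNF superfamily was uneven. Tnf itself read 12.46 at 4 h, against 9.54 unstimulated (7.55-fold), and Tnfsf9, the ligand of the T cell receptor 4-1BB, read 8.88 at 4 h, against 6.06 unstimulated (7.07-fold). The other 7 members analysed were under 2-fold, and the list median was 0.14. None of 15 colony-stimulating and growth factors reached 1.5-fold, beside 2.54% of all genes that were at least 1.5-fold higher and 2.78% that were lower. The nearest were endothelin, Edn1, at 0.38, platelet-derived Pdgfb at 0.37, Tgfb2 at -0.57 and the hepatocyte growth factor gene Hgf at -0.56.

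Receptors moved in both directions. Of 26 G protein-coupled receptors outside the chemokine family 4 were 2-fold higher and 1 was 2-fold lower, and 6 passed the fit upward (5 to 8) and 9 downward (5 to 8). Gpr84, which senses fatty acids of medium chain length, read 11.09 at 4 h, against 8.42 unstimulated, with an estimate of 2.35 ± 0.09 in the fit (adjusted p = 5.9e-08). Fpr2, a receptor for formylated and other inflammatory peptides, read 11.22 at 4 h, against 8.48 unstimulated. Hcar2, the niacin and hydroxybutyrate receptor, read 7.97 at 4 h, against 6.47 unstimulated. At the other end Cnr2, the cannabinoid receptor of immune cells, read 6.06 at 4 h, against 7.52 unstimulated. The receptor for complement C3a, C3ar1, read 11.78 at 4 h, against 12.49 unstimulated.

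Chemokine receptors split in the same way. Cxcr4, which holds leukocytes in bone marrow and tissue through CXCL12, read 8.87 at 4 h, against 10.39 unstimulated, a 2.86-fold lower level. Ccr2, the receptor that brings monocytes to inflamed sites, read 6.20 at 4 h, against 6.90 unstimulated, and Ccr1 read 9.71 at 4 h, against 10.26 unstimulated. Ccrl2, an atypical receptor that presents the ligand chemerin, read 11.09 at 4 h, against 9.40 unstimulated. All 4 passed the fit, Ccr1 at an adjusted p of 0.045, and the fit called 1 of 10 chemokine receptors higher (1 in each fit with a genotype left out) and 3 lower (2 to 3). Among 33 cytokine and TNF receptors 2 were 2-fold higher and 0 lower. They were Cd40, which receives T cell help and read 9.88 at 4 h, against 8.002 unstimulated, and the TNF receptor Tnfrsf1b, which at 12.27 at 4 h, against 11.25 unstimulated, lay at the limit.

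Several inhibitors of G protein signalling were among the genes with the lowest differences. Rgs2 read 7.997 at 4 h, against 10.16 unstimulated, and was the one gene 4-fold lower (4.49-fold). Rgs1 read 9.91 at 4 h, against 11.36 unstimulated, and Rgs18 read 6.51 at 4 h, against 7.91 unstimulated. RGS proteins speed the shut-off of G proteins, and these were 3 of the 28 genes in a list with cyclic nucleotide enzymes, whose median was -0.09 as deposited and 0.05 after centring on ribosomal protein genes. In the same list Pde4b, which degrades cyclic AMP, read 9.65 at 4 h, against 7.31 unstimulated. Outside that list Pkib, an inhibitor of the cyclic AMP-dependent kinase, read 7.32 at 4 h, against 8.56 unstimulated. All 5 genes passed the fit, which called 1 member of the list higher (1 in each fit with a genotype left out) and 5 lower (3 to 5).

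Receptors for microbial products were higher in a few members only. Tlr2, the receptor for bacterial lipoproteins, read 11.15 at 4 h, against 9.31 unstimulated. Its partner Tlr1 read 8.58 at 4 h, against 7.41 unstimulated, and the other partner, Tlr6, read 8.19 at 4 h, against 7.61 unstimulated. Cd14, the LPS co-receptor, read 12.28 at 4 h, against 11.17 unstimulated. These passed the fit as the 4 upward calls of 14 genes (3 to 4), while 3 others passed it downward (1 to 2), and the list median was -0.02. Among 14 cytosolic sensors of nucleic acids 2 were 2-fold higher and 0 lower, and 3 passed the fit upward (0 to 4). One of the pair, Ifih1, a sensor of viral double-stranded RNA, read 10.64 at 4 h, against 9.05 unstimulated, and the other, Oasl1, an inhibitor of Irf7 translation, read 9.91 at 4 h, against 8.33 unstimulated. C-type lectins held Clec4e, the mycobacterial glycolipid receptor Mincle, at 13.07 at 4 h, against 10.86 unstimulated. Clec5a read 9.44 at 4 h, against 7.90 unstimulated, and Olr1, a scavenger receptor for oxidised lipoprotein, read 10.59 at 4 h, against 9.13 unstimulated, while that list of 23 had 3 members 2-fold higher, 0 lower and a median of 0.00.

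NF-kB subunits and their inhibitors moved as a group. Of 12 genes analysed all were higher, 6 of them 2-fold and 11 at least 1.5-fold, with a median difference of 1.05, and 11 passed the fit (9 to 11). Nfkbiz, the atypical inhibitor that acts in the nucleus as a co-activator of Il6, read 9.47 at 4 h, against 6.87 unstimulated. Nfkbie, a classical cytosolic inhibitor, read 9.08 at 4 h, against 7.06 unstimulated, and Nfkb2, the precursor of p52, read 9.76 at 4 h, against 8.15 unstimulated. Tnip1, a partner of the deubiquitinating brake A20, read 11.45 at 4 h, against 9.91 unstimulated.

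Other signalling and feedback genes followed with smaller counts. The list of 26 adaptors, kinases and other genes of Toll-like receptor signalling had 3 members 2-fold higher (5 after centring on ribosomal protein genes) and 0 lower. Among the 3 were Tnip1 and Cd14, both given above with other lists. In the fit 8 members passed upward (5 to 7) and 0 downward. The kinase Mapkapk2, which acts below p38 and stabilises cytokine mRNA, read 11.81 at 4 h, against 10.62 unstimulated, and Ikbke, a kinase of the interferon branch, read 10.33 at 4 h, against 9.39 unstimulated. Among 34 phosphatases and feedback proteins 4 were 2-fold higher and 2 lower, and after centring on ribosomal protein genes 0 were 2-fold lower. Socs3, which blocks signalling from IL-6 family receptors, read 9.51 at 4 h, against 7.66 unstimulated. Spred1, an inhibitor of the Ras pathway, read 9.78 at 4 h, against 8.55 unstimulated, and Gadd45g, a stress sensor, read 7.82 at 4 h, against 8.95 unstimulated. The mRNA decay list had 0 of 18 members 2-fold different, its largest being Zc3h12a, the endonuclease Regnase-1 that degrades Il6 mRNA, at 7.39 at 4 h, against 6.49 unstimulated.

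Among transcription factors Maff, a small Maf protein, read 8.64 at 4 h, against 6.90 unstimulated. Ets2, an effector of Ras signalling, read 10.10 at 4 h, against 8.55 unstimulated, and Tfec, a macrophage member of the MiT family, read 9.99 at 4 h, against 8.53 unstimulated. Irf1 read 10.89 at 4 h, against 9.45 unstimulated, and was the 1 member of 17 interferon regulatory factors and STATs past 2-fold. Irf8, which sets macrophage lineage, read 9.08 at 4 h, against 10.004 unstimulated. Id3, an inhibitor of helix-loop-helix factors, read 7.25 at 4 h, against 8.29 unstimulated, and Pparg, the nuclear receptor of fatty acid uptake and storage, read 7.40 at 4 h, against 9.05 unstimulated (3.13-fold lower). All 7 genes passed the fit. The list of 45 macrophage transcription factors had 24 higher and 21 lower members and a median of 0.05, with 7 past the fit upward (5 to 7) and 10 downward (5 to 11). Of 38 AP-1, EGR and immediate early factors 3 were 2-fold higher and 1, Id3, lower (0 after centring), with 6 past the fit upward (6 to 7) and 7 downward (3 to 8). By 4 h the early response gene Ier3 read 9.68, against 8.66 unstimulated.

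Antiviral interferon-stimulated genes were higher in 36 of 42 members, 9 of them 2-fold, and 0 were 2-fold lower. The list median was 0.40 at 4 h, and -0.08 at 1 h. Ifit1, which binds viral RNA that lacks host cap marks, read 10.40 at 4 h, against 8.004 unstimulated, and Ifit2 read 7.87 at 4 h, against 5.85 unstimulated. Rsad2, the antiviral enzyme viperin, read 11.07 at 4 h, against 9.51 unstimulated. Mx1, a GTPase that blocks influenza virus, read 6.33 at 4 h, against 4.76 unstimulated, and its difference of 1.57 became 0.33 when values under 6 were raised to 6. The fit called 17 members higher, and this count was 4 without the wild-type arrays, 9 without the MyD88 KO arrays and 19 without the TRIF KO arrays.

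Interferon-inducible GTPases that attack vacuoles holding pathogens showed the same direction. Gbp2 read 10.07 at 4 h, against 7.997 unstimulated, and Ifi47 read 10.25 at 4 h, against 9.02 unstimulated. Irgm1 read 9.64 at 4 h, against 8.82 unstimulated. Of the 9 GTPases 8 were higher and 3 of these 2-fold, with 6 past the fit (2 to 7). One of the 3 was Gbp6, which read 6.03 at 4 h, against 4.58 unstimulated, and showed a difference of 0.03 with values under 6 raised to 6. Gbp6 passed the filter through the wild-type 4 h array only.

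Antigen presentation genes differed little by fold. None of 16 genes of the MHC class I and immunoproteasome list was 2-fold different, beside 1.23% of all genes 2-fold higher and 0.459% lower. Of the 16, 12 were above 0, and 5 passed the fit upward (1 to 3) and 0 downward. The peptide transporter Tap1 read 9.23 at 4 h, against 8.62 unstimulated, and the immunoproteasome subunit Psmb10 read 10.99 at 4 h, against 10.45 unstimulated. In the class II list 0 of 14 were 2-fold different, and the largest was the transcription factor Rfx5 at 7.86 at 4 h, against 7.16 unstimulated. Costimulation gave a wider spread, with 4 of 34 genes 2-fold higher (7 after centring) and 1 lower. Icosl, the ligand of the T cell costimulator ICOS, read 8.15 at 4 h, against 6.64 unstimulated. Averaged over its probe sets, Icosl had a difference of 0.96 in place of 1.51.

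Effector enzymes gave some of the widest differences. Acod1, which makes the antimicrobial metabolite itaconate, read 13.04 at 4 h, against 9.31 unstimulated (13.3-fold), with an estimate of 3.67 ± 0.20 in the fit (adjusted p = 3.1e-07). Slc7a2, an arginine transporter, read 9.64 at 4 h, against 7.53 unstimulated, and Gch1, which makes the cofactor of nitric oxide synthase, read 10.97 at 4 h, against 9.89 unstimulated. Ch25h, which makes the antiviral sterol hydroxycholesterol, read 7.28 at 4 h, against 5.49 unstimulated. Of 17 genes of this list 4 were 2-fold higher and 0 lower, and 7 passed the fit upward (6 to 7).

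In prostaglandin synthesis Ptgs2, the inducible cyclooxygenase, read 8.40 at 4 h, against 5.47 unstimulated (7.63-fold). The enzyme downstream, Ptges, makes prostaglandin E2 and read 9.57 at 4 h, against 7.54 unstimulated. The synthase of prostaglandin D2, Hpgds, read 6.94 at 4 h, against 7.65 unstimulated. Pla2g15, a lysosomal phospholipase, read 9.36 at 4 h, against 10.26 unstimulated. Over the whole list 11 of 16 members were below 0, with a median of -0.22 (-0.08 after centring on ribosomal protein genes), and 5 passed the fit upward (3 to 5) and 6 downward (4 to 6).

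Adhesion and motility genes included Icam1, the ligand of leukocyte integrins, at 11.39 at 4 h, against 8.75 unstimulated (6.23-fold). Marcksl1, an actin regulator, read 12.24 at 4 h, against 9.85 unstimulated, and Ehd1 read 11.29 at 4 h, against 9.21 unstimulated. Ralgds, an activator of the GTPase Ral, read 10.52 at 4 h, against 8.61 unstimulated. The vitronectin receptor subunit Itgb5 read 10.48 at 4 h, against 11.30 unstimulated. Matrix and coagulation genes held Serpinb2, an inhibitor of plasminogen activation, at 9.65 at 4 h, against 7.71 unstimulated, and the membrane collagenase Mmp14 at 10.82 at 4 h, against 9.11 unstimulated. Thbd, the anticoagulant thrombomodulin, read 6.73 at 4 h, against 8.27 unstimulated. In efferocytosis, the uptake of dying cells, the receptor kinase Mertk read 8.06 at 4 h, against 9.22 unstimulated, while the related kinase Axl read 8.52 at 4 h, against 7.91 unstimulated. Fcgr1, the high-affinity IgG receptor, read 8.42 at 4 h, against 9.34 unstimulated. All of these passed the fit. By list, 3 of 33 adhesion genes and 3 of 46 actin and small GTPase genes were 2-fold higher and 0 lower, 3 of 34 matrix and coagulation genes were 2-fold higher and 1 lower, and 1 of 20 efferocytosis genes was 2-fold lower. Of 18 Fc and complement genes 0 were 2-fold different, with complement factor B, Cfb, at 7.61 at 4 h, against 6.65 unstimulated. Over all genes 1.23% were 2-fold higher and 0.459% lower. Counts of 0 or 1 in lists of this size say little beside those shares.

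Of 34 inflammasome, apoptosis and cell death genes 6 were 2-fold higher and 1 was lower. Traf1, an adaptor of TNF receptors, read 7.54 at 4 h, against 5.33 unstimulated, a difference of 2.22 that became 1.54 with values under 6 raised to 6. Cflar, which blocks caspase-8, read 9.76 at 4 h, against 8.36 unstimulated. Nlrp3, the inflammasome sensor, read 10.40 at 4 h, against 8.71 unstimulated. Pdcd4, an inhibitor of translation, read 5.98 at 4 h, against 7.36 unstimulated. The fit called 11 members higher (9 in each fit with a genotype left out) and 3 lower (1 to 4).

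**Figure D2:**
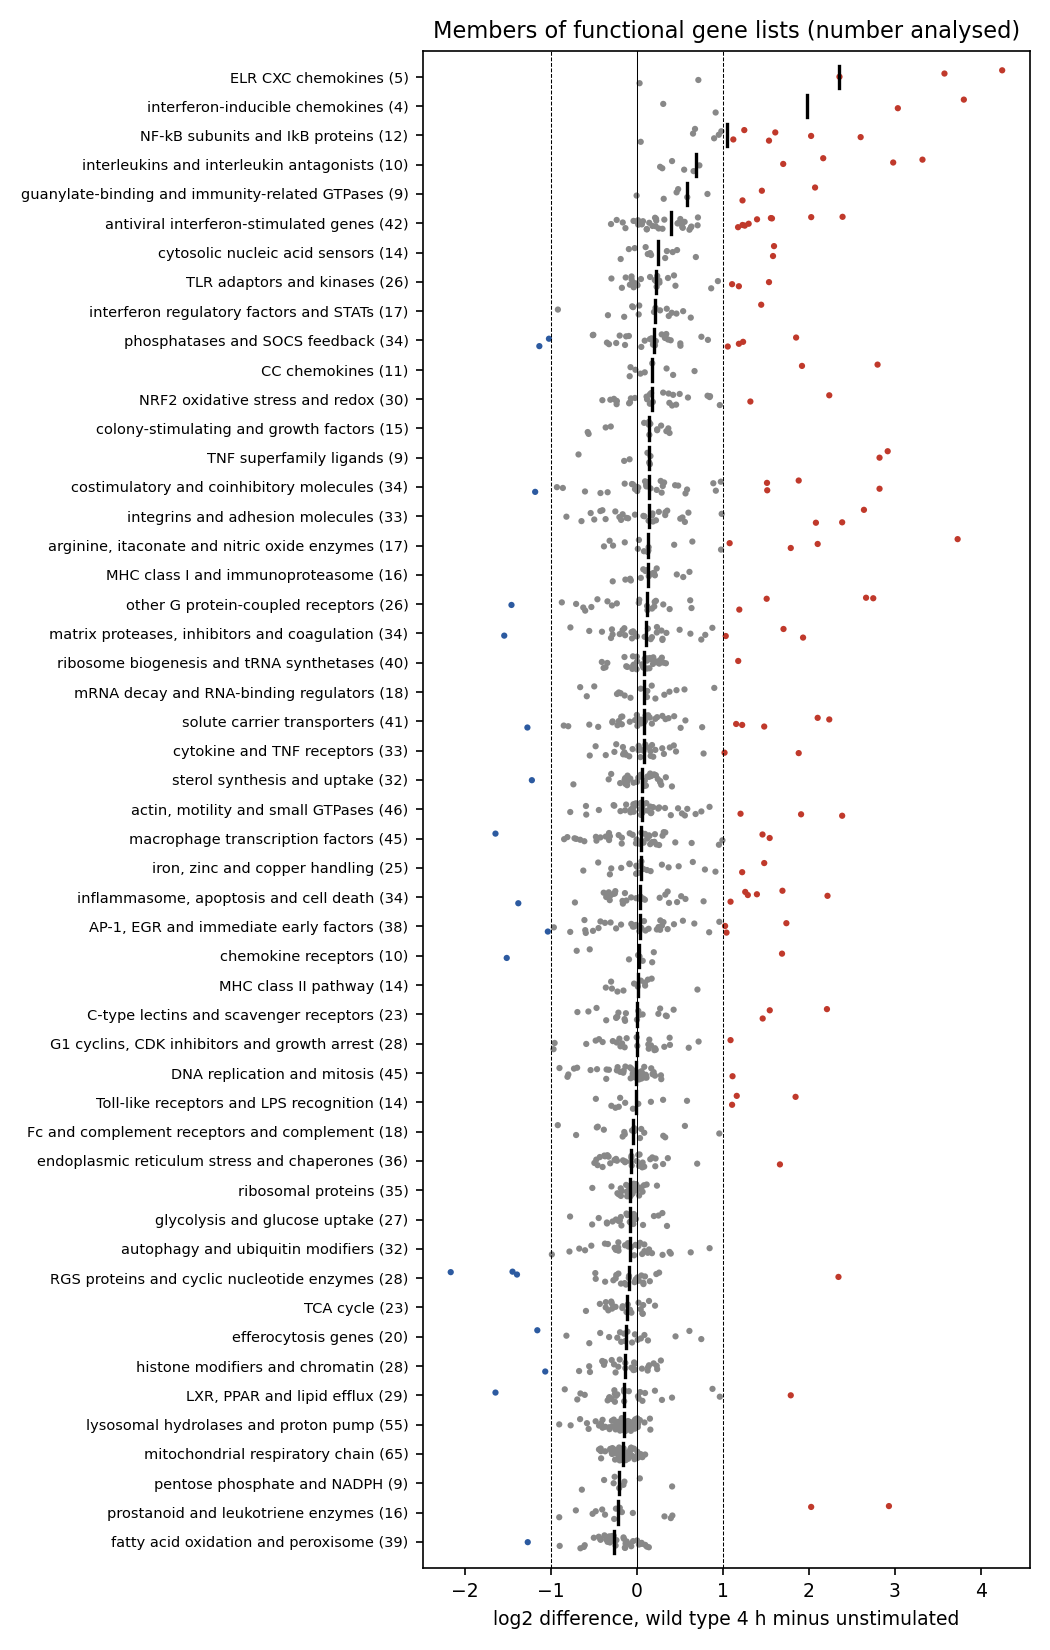
Log2 differences, wild-type cells at 4 h minus unstimulated, for the analysed members of 51 functional gene lists, 1 point per gene, ordered by the list median (black bar). Red points are at least 2-fold higher, blue points at least 2-fold lower and grey points in between. ELR CXC chemokines have a median of 2.36 and fatty acid oxidation genes one of -0.27.

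Of 30 genes of the NRF2 and redox list 2 were 2-fold higher, 7 were 1.5-fold higher and 0 were lower by 1.5-fold, and 15 passed the fit upward (12 to 13) and 0 downward. Slc7a11, which imports cystine for glutathione synthesis, read 10.43 at 4 h, against 8.19 unstimulated. Sod2, the mitochondrial superoxide dismutase, read 12.33 at 4 h, against 11.01 unstimulated. Txnrd1, thioredoxin reductase, read 12.58 at 4 h, against 11.73 unstimulated, and the autophagy receptor Sqstm1 read 13.61 at 4 h, against 12.76 unstimulated. The zinc importer Slc39a14 read 9.24 at 4 h, against 7.76 unstimulated, and the copper transporter Slc31a2 read 11.25 at 4 h, against 10.03 unstimulated. Of 25 metal handling genes 2 were 2-fold higher and 0 lower. Of 41 solute carriers 5 were 2-fold higher and 1 lower, the lower one being Slc46a3, a lysosomal transporter, at 7.79 at 4 h, against 9.06 unstimulated. Chaperone genes differed in 1 of 36 members by 2-fold, the inducible heat shock gene Hspa1b, which read 6.84 at 4 h, against 5.18 unstimulated. Its difference of 1.66 became 0.84 with values under 6 raised to 6.

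In fatty acid oxidation and peroxisome genes 31 of 39 members were below 0, beside 47.8% of all genes, and the median was -0.27 as deposited and -0.13 after centring on ribosomal protein genes. The fit called 11 of them lower (4 to 9) and 0 higher. Abcd2, a peroxisomal importer of fatty acids, read 5.80 at 4 h, against 7.07 unstimulated. Crot, a peroxisomal acyltransferase, read 6.86 at 4 h, against 7.76 unstimulated, and Plin2, which coats lipid droplets, read 13.07 at 4 h, against 13.73 unstimulated. Dhcr7, the last enzyme of cholesterol synthesis, read 6.81 at 4 h, against 8.03 unstimulated, in a list of 32 sterol genes with a median of 0.06. Among LXR, PPAR and lipid efflux genes the cholesterol exporter Abca1 read 10.36 at 4 h, against 9.48 unstimulated, opposite to Pparg.

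Of 65 respiratory chain genes 56 were below 0, none reached 1.5-fold, and 2 passed the fit downward (0 to 3). Their median of -0.16 became -0.02 after centring on ribosomal protein genes, and it was -0.24 at 1 h against the same unstimulated array. Lysosomal hydrolases and proton pump subunits had 46 of 55 below 0 and a median of -0.15 that became -0.01 after centring. Of these, 3 were at least 1.5-fold lower (2 after centring), and 6 passed the fit downward (2 to 10) and 0 upward. Glycolysis genes had a median of -0.08, and 0.06 after centring, with 0 of 27 members 2-fold different. Pfkfb3, which makes the activator of phosphofructokinase, read 6.68 at 4 h, against 7.45 unstimulated. The TCA cycle list had a median of -0.12, and 0.02 after centring, with Mdh1, malate dehydrogenase, at 10.53 at 4 h, against 11.13 unstimulated. No direction is given to these 4 lists as a whole, since it turned or vanished with this scaling. The centring may shift genes too far, as it put 28 of 35 ribosomal protein genes above 0, with a median of 0.06. After a further quantile normalization the medians were -0.14 for the respiratory chain, -0.09 for glycolysis and -0.09 for the TCA cycle. The pentose phosphate list of 9 genes had a median of -0.21, and -0.07 after centring, with the NADPH-producing enzyme Idh1 at 11.16 at 4 h, against 11.80 unstimulated. Autophagy and ubiquitin genes had 0 of 32 members 2-fold different, with 3 past the fit upward (2 to 3) and 7 downward (3 to 7). Fbxo32, a ubiquitin ligase subunit known from muscle wasting, read 7.17 at 4 h, against 8.16 unstimulated, and Wwp1, another ubiquitin ligase, read 8.46 at 4 h, against 9.25 unstimulated.

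Growth and chromatin genes were mostly under 2-fold, as were most of all genes, of which 1.23% were 2-fold higher and 0.459% lower. In DNA replication and mitosis 1 of 45 genes was 2-fold higher and 0 lower, while 7 passed the fit downward (4 to 7). Mcm7, a subunit of the replicative helicase, read 6.68 at 4 h, against 7.58 unstimulated, and the proliferation marker Mki67 read 7.19 at 4 h, against 6.07 unstimulated. The cell cycle inhibitor Cdkn1a read 11.41 at 4 h, against 10.32 unstimulated. Among 28 cyclin and growth arrest genes 1 was 2-fold higher and 0 lower, and 6 passed the fit upward (3 to 5) and 5 downward (1 to 5). In that list Sesn1, a stress-induced inhibitor of mTORC1, read 8.85 at 4 h, against 9.82 unstimulated. Of 28 chromatin genes 1 was 2-fold lower and 0 higher, and 4 passed the fit downward (2 to 6) and 0 upward. Dnmt3a, a DNA methyltransferase, read 9.87 at 4 h, against 10.93 unstimulated, a difference of -1.07 that shrank in size to 0.93 after centring and to 0.73 averaged over its probe sets. The maintenance methyltransferase Dnmt1 read 9.12 at 4 h, against 9.79 unstimulated. Among 35 ribosomal protein genes 0 were 2-fold different and 0 passed the fit, with a median of -0.08, and of 40 ribosome assembly and tRNA synthetase genes 1 was 2-fold different, Rrs1, which read 9.57 at 4 h, against 8.39 unstimulated.

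Of the 46 genes 2-fold lower 29 stood in no list, and so did 36 of the 123 higher ones. Dbp, a transcription factor of the circadian output, read 6.08 at 4 h, against 7.43 unstimulated. Tsc22d3, the glucocorticoid-induced leucine zipper, read 8.52 at 4 h, against 9.79 unstimulated, and Mknk2, a kinase of the translation factor eIF4E, read 8.98 at 4 h, against 10.25 unstimulated. Dhrs3, which reduces retinal, read 9.01 at 4 h, against 10.25 unstimulated. Averaged over probe sets, Dbp, Tsc22d3 and Mknk2 fell short of 2-fold, with sizes of 0.94, 0.90 and 0.90. Among unlisted higher genes, named after their values were seen, Mefv, the inflammasome protein pyrin, read 9.98 at 4 h, against 8.25 unstimulated. Jak2, a kinase of cytokine receptors, read 10.20 at 4 h, against 9.16 unstimulated, and Cav1, the coat protein of caveolae, read 10.65 at 4 h, against 9.21 unstimulated.

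The wild-type array at 1 h shares the unstimulated array with the 4 h comparison. Most genes past 2-fold at 4 h were under 2-fold at 1 h. At 1 h 24 genes (0.239%) were 2-fold higher and 0 (0%) lower, and 99.1% of all genes lay within 0.5 of the unstimulated level. Of the 123 genes 2-fold higher at 4 h, 18 had already reached 2-fold at 1 h, 91 lay within 0.5 of the unstimulated level, and 6 were above their 4 h level. The last included Tnfsf9, at 4.06 at 1 h and 2.82 at 4 h, Nfkbiz, at 3.86 and 2.60, and Tnf, at 3.13 and 2.92. Cxcl1 had differences of 3.98 at 1 h and 4.25 at 4 h, while Ccl5 had 0.02 and 3.80 and Fpr2 had 0.05 and 2.75. Of the 46 genes 2-fold lower at 4 h 0 were 2-fold lower at 1 h and 42 lay within 0.5, with Rgs2 at -0.74 at 1 h and Thbd at -0.65. The consensus NF-kB motif stood in 36.4% of 22 promoters of the genes 2-fold higher at both times. It stood in 23.9% of 109 promoters of those 2-fold higher at 4 h only, beside 10.7% for all genes analysed. The interferon response core stood in 0 and in 7.34%, beside 3.24% for all genes. With 22 promoters and that share, the 0 says little.

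**Figure D3:**
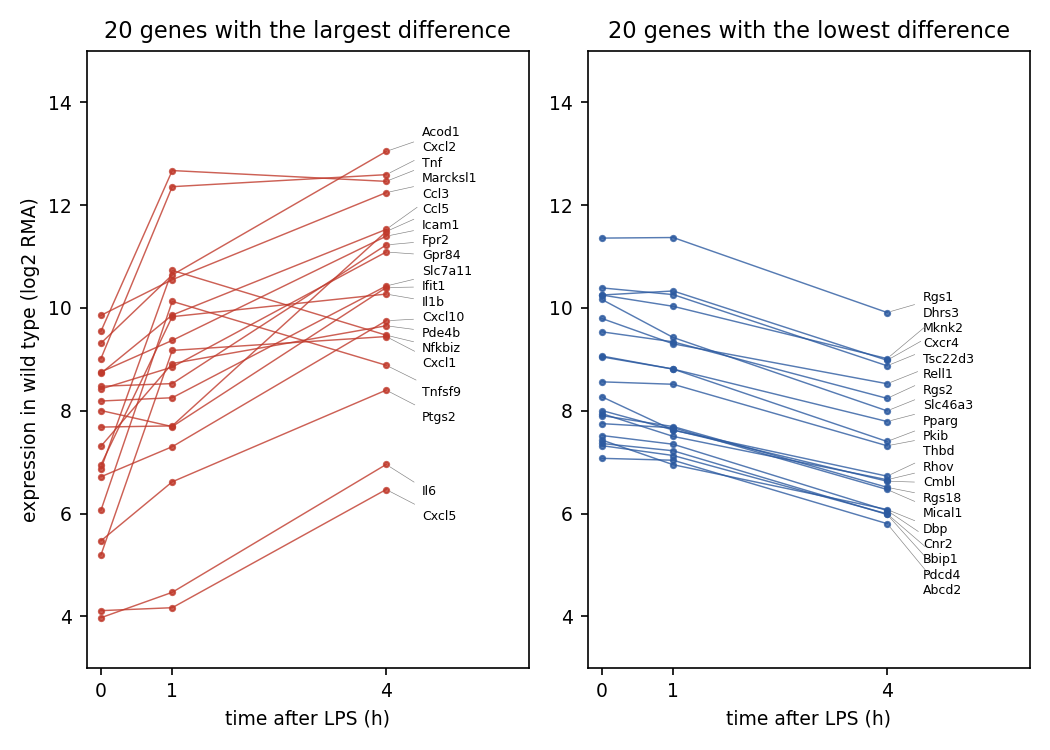
Expression in wild-type macrophages (log2 RMA) at 0, 1 and 4 h of LPS, 1 array a time, for the 20 genes with the largest difference at 4 h (left) and the 20 with the lowest (right). Tnf, Tnfsf9 and Nfkbiz lie higher at 1 h than at 4 h, and Ccl5, Fpr2 and Cxcl5 differ at 4 h only.

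Other probe sets of the same genes served as a check within the 2 arrays. Of 82 further probe sets, which belong to 59 of the 2-fold genes and reached log2 = 6, 78 (95.1%) had the same sign and 51 were also 2-fold. For the higher genes all 55 had the same sign, and for the lower genes 23 of 27. The 4 with the opposite sign were of Mettl7a1 (0.27), Slc66a2 (0.10), Rcbtb2 (0.01) and Tsc22d3 (0.13), all named after their values were seen except Tsc22d3. None was 2-fold in the opposite direction. Probe sets of a gene share the RNA of the same array and can detect different transcripts.

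**Figure D4:**
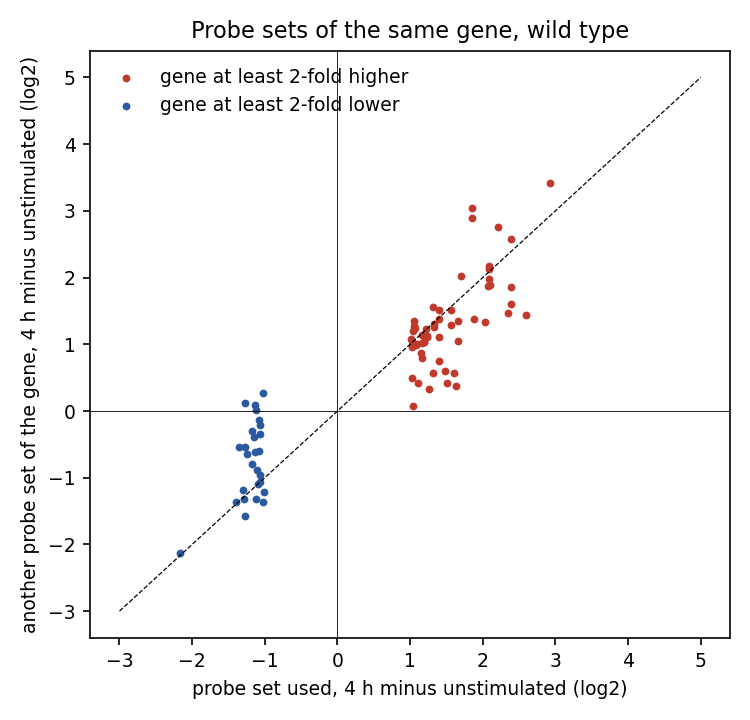
Log2 difference, wild-type cells at 4 h minus unstimulated, of other probe sets of the 2-fold genes (vertical axis) against the probe set used for the gene (horizontal axis), 1 point per other probe set. The dashed line marks equal differences. All 55 red points of higher genes lie above 0, and 4 of the 27 blue points of lower genes do too.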

How the data were processed

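Total RNA of macrophages was labelled with biotin and hybridised to an Affymetrix array of 22690 probe sets, 1 array for each of 3 genotypes at 3 times. The authors deposited log2 expression values, for which the submitters' processing notes name RMA. That method corrects background, normalizes quantiles and summarises probes. The sources used here do not give its version or say whether the 9 arrays went through it as 1 set, and the deposited values were used without further scaling.

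Probe sets were named from the platform annotation with symbols updated through a RefSeq table (GRCm38.p6): 20393 had 1 symbol, of which 20364 were found in RefSeq, 691 had several and 1606 none. The probe set with the highest mean over 9 arrays stood for a gene (4958 genes had more than 1), and genes below log2 = 6 on all arrays were left out. Differences are wild type at 4 h minus unstimulated. The fit of genotype and time without interaction used limma 3.58.1 (lmFit, eBayes without trend, two-sided, Benjamini-Hochberg over 10032 genes) in R 4.3.3. It had 4 residual and 8.39 prior degrees of freedom. The simulated data on which it was tried held no differences in response between genotypes, so they do not check that part of its error. Other steps used Python 3.11.15 with pandas 2.3.3. With 1 array for each genotype and time, the error of the fit takes in differences in the LPS response between genotypes as well as variation between arrays. No label says that arrays came from separate mice or cultures, so the p-values do not measure how mice vary.

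The 62 gene lists hold 1670 genes, of which 1324 were analysed. Members and lists were chosen with earlier results of these data known. Edn1 was taken off the receptor list after its value was seen, because it is a ligand. Named genes are the 20 with the largest and the 20 with the lowest difference, in each list at most 4 members by absolute difference, and defining members of a list. Promoters of 300 bases came from RefSeq. The alternatives tried were a floor, other filters, the mean of probe sets, ribosomal protein centring, quantile normalization once more and other fits.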

Additional observations from a re-analysis of the deposited data

Results flagged for a closer look

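Probe sets that name several genes or none entered no count of genes. Of 1410 such probe sets that reached log2 = 6, 22 were at least 2-fold higher and 3 at least 2-fold lower in wild-type macrophages at 4 h of LPS, against unstimulated cells. At 1 h, 1 was 2-fold higher and 0 lower against the same unstimulated array. The largest difference at 4 h was 2.64 and the lowest -1.57. The transcripts behind them were not analysed here.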

How the results depend on the processing

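The counts of genes 2-fold and 4-fold different kept within 1.5 times of 123, 46, 29 and 1 under a floor at log2 = 6, other filters, the mean of probe sets and a further quantile normalization. Centring on ribosomal protein genes gave 27 genes 2-fold lower and 260 genes lower in the fit. With 1 genotype left out, the fit called 289 to 444 genes higher and 245 to 704 lower. Without a genotype term it called 150 higher and 158 lower, and with the 0 and 4 h arrays only 422 lower. The cause of the last changes was not tested. Of 101 named genes past 2-fold, 87 stayed past it under every alternative and 0 changed sign, while 4 of 139 named genes under 2-fold changed sign under at least 1. No paired analysis was possible because the arrays of different groups, 1 each, share no replicate numbers from the labels. The genotype term of the fit compares times within a genotype. Of the 171 named genes that passed the fit, 115 still did in the same direction without the wild-type arrays, 160 without the MyD88 knockout and 146 without the TRIF knockout. The single arrays, the shared unstimulated array and levels near the bottom of the scale limit the precision of every difference.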
